A study of Homo sapiens with 4 samples.

Results

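Chromosome 10 carried 9024 of the 160601 distinct peaks in the deposited list, a share of 5.62% (95% Wilson interval 5.51 to 5.73%). The members were chosen by position, as the distinct peaks on that chromosome, and the chromosome was chosen by its high density of peaks in this same list; each was counted once however many rows repeat it. Each peak is a stretch where reads from chromatin immunoprecipitation (ChIP) against H3K4me1 were called higher in LSD2-knockdown HepG2 cells than in control HepG2 cells. HepG2 is an established human liver tumour line. The study comprised 4 samples: an H3K4me1 ChIP library and an input library from cells given an siRNA against LSD2, and the same pair of libraries from cells given a control siRNA. The call set 1 knockdown ChIP library against 1 control ChIP library, without replicates, and the conditions were therefore not tested against each other. The depth of the libraries is unknown.

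H3K4me1 is histone H3 with a single methyl group on lysine 4, a mark of enhancers and of the flanks of promoters. LSD2, encoded by KDM1B, is a flavin-dependent demethylase that removes methyl groups from this lysine and is known to act within the bodies of transcribed genes. Chromosome 10 holds many genes active in liver, among them the CYP2C cytochrome P450 cluster, SCD, which desaturates fatty acids, and LIPA, the lysosomal acid lipase. It also holds very long genes such as CTNNA3, which encodes a catenin of cell junctions, and PCDH15, which encodes a protocadherin of sensory hair cells. Per the gene table of GRCh38.p14 the chromosome has 734 protein-coding genes, against a median of 854 on the other 21 autosomes. It carried 12.3 peaks per protein-coding gene, against a median of 7.61 there, which was rank 5 among the 22 autosomes. The peaks lie on hg19, for which no genes were at hand, so which genes the peaks lie in was not analysed here. No peak sequence is shown for the same reason.

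Peaks were dense over most of chromosome 10, and the density was neither level nor confined to a few stretches. Between its first and last peak, without the peak-free gap over 1 Mb, it held 68.3 peaks per Mb (95% Poisson interval 66.9 to 69.8). The median of the other 21 autosomes was 53.7 peaks per Mb, with an SD of 8.52 between them, and chromosome 10 stood at 1.27 times that median. Chromosomes 2, 6 and 20 alone were denser. All intervals are for counting error alone, as if each peak were independent of the next, and no p-value is given because peaks and windows are not replicates of a condition. The covered length told the same order of size: peaks took up 24.2 kb of each Mb on chromosome 10, against a median of 17.7 kb per Mb on the other autosomes, and 4 autosomes were above it.

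**Figure D1:**
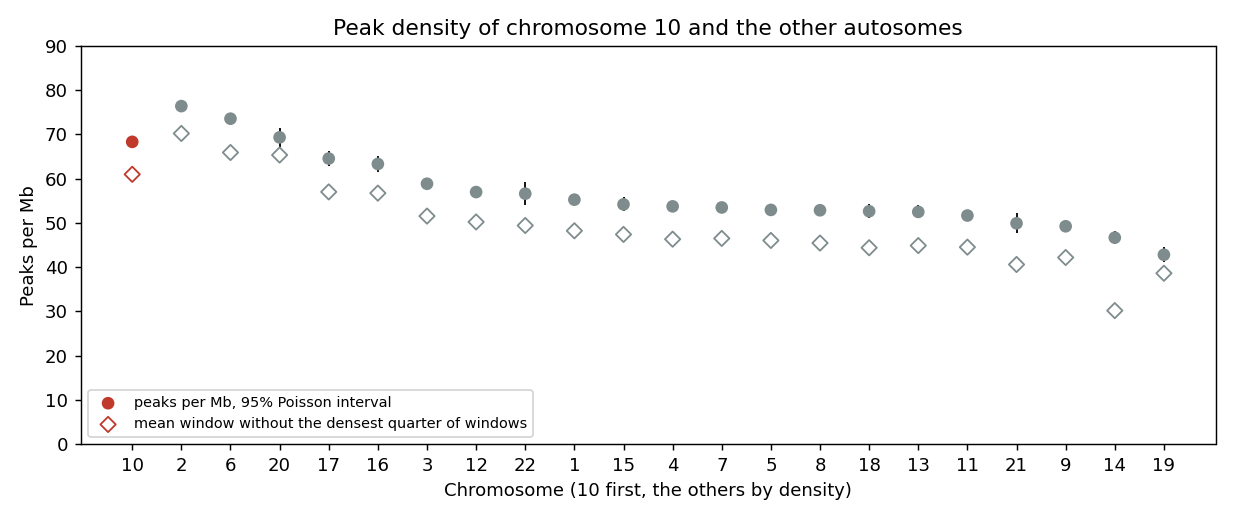
Peaks per Mb (filled points, with 95% Poisson intervals) and the mean number of peaks per 1 Mb window after leaving out the densest 25% of each chromosome's windows (open diamonds), for chromosome 10 in red and the other 21 autosomes in grey. Chromosome 10 stands at 68.3 peaks per Mb and at 60.99 peaks per remaining window, below chromosomes 2, 6 and 20 and above the other 18 on both measures.

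The arms were taken as the sides of the longest peak-free gap of the chromosome, 3.36 Mb from 39068398 to 42429192 (hg19, counted from 1, as are all positions). The long arm held 6019 peaks at 64.7 per Mb (95% Poisson interval 63.0 to 66.3), and the short arm held 3005 at 77.1 per Mb (74.4 to 79.9). The long arm thus had 0.839 times the density of the short arm (exact 95% interval 0.803 to 0.877). Both arms were above the autosome median. Set against whole chromosomes, the long arm was exceeded by 3 of the other 21 autosomes and the short arm by none. When 17 autosomes were divided at their own longest gap, which gave 34 sides of at least 10 Mb, the short arm of chromosome 10 came after 2 sides of other chromosomes, the side of chromosome 6 before its gap (80.2 peaks per Mb) and the side of chromosome 2 after its gap (77.9). The long arm came after 8 sides of other chromosomes.

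Windows of 1 Mb show how the density was spread. Of the 130 full windows of chromosome 10, 96 held more than 57 peaks, the median window of the other autosomes, a share of 73.8% (95% Wilson interval 65.7 to 80.6%) beside 49.2% of the windows there. A further measure is the upper quartile of the other autosomes, 71 peaks, which 59 windows reached, 45.4% (37.1 to 53.95%) beside 26.1%. Only 10 windows, 7.69% (4.23 to 13.6%), fell below the lower quartile of 43 peaks, beside 23.8%. Chromosome 10 therefore had more windows at the high end and fewer at the low end than the other autosomes combined. Those shares are a description, since the chromosome was chosen for its density.

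The arms differed at both ends of the windows. Long-arm windows held 20 to 103 peaks with a median of 66 (92 windows), and short-arm windows held 48 to 117 with a median of 73 (38 windows). The ranges overlapped over most of their length. Above the autosome median stood 62 of 92 long-arm windows (67.4%) and 34 of 38 short-arm windows (89.5%). At or above the upper quartile stood 34 long-arm windows (36.96%) and 25 short-arm windows (65.8%). All 10 windows below the lower quartile lay on the long arm and none on the short arm.

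**Figure D2:**
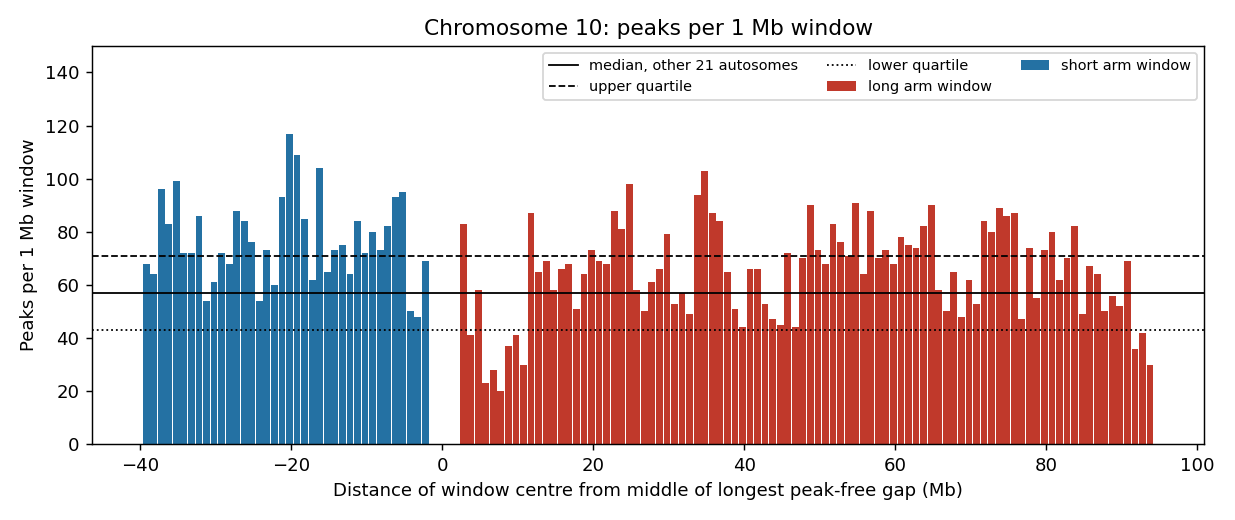
Peaks in each full 1 Mb window of chromosome 10, on the long arm (red) and the short arm (blue), by distance in Mb of the window's centre from the middle of the longest peak-free gap. Horizontal lines mark the median (57), upper quartile (71) and lower quartile (43) of windows on the other 21 autosomes. Windows below the lower quartile sit on the long arm, between 44000001 and 52000000 and at its far end. The first full window beyond the gap held 83 peaks.

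Compared with chromosomes 2 and 20, chromosome 10 was less even. Its windows had a mean of 68.4 peaks with an SD of 18.1, a coefficient of variation of 26.5%. The coefficient was 19.4% on chromosome 2, 26.1% on chromosome 6 and 18.4% on chromosome 20, and its median over the other 21 autosomes was 31.2%. Counted from the most even, chromosome 10 was at rank 7 of the 22 autosomes. Adjacent windows had like counts, with Pearson's r of 0.45 over 128 pairs of neighbours, against 0.33 on chromosome 2, 0.59 on chromosome 6 and 0.28 on chromosome 20; each r is a description over windows that share the same libraries.

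The excess over the other autosomes was present on both arms and in most windows, but was shared unevenly between them. Counted against their mean of 58.0 peaks per window, the 130 windows of chromosome 10 held 1342 peaks more. Of this excess the long arm held 46.5% in 70.8% of the windows, and the short arm held 53.5% in 29.2% of the windows. In all, 92 windows were above that mean and 38 below it. The 32 densest windows alone amounted to 78.4% of the net excess. That share is high by construction, since windows below the mean subtract from the net excess. Of all peaks in its windows, chromosome 10 had 32.7% in the densest 25%, against a median of 34.5% on the other autosomes. This was rank 19 of 22 from the highest. Without the densest 25% of the windows of every autosome, chromosome 10 still averaged 60.99 peaks per window against a median of 46.5 on the other autosomes, which was rank 4 of 22. Its lower decile of windows, 46.8 peaks, was also at rank 4, against a median of 33.2.

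**Figure D3:**
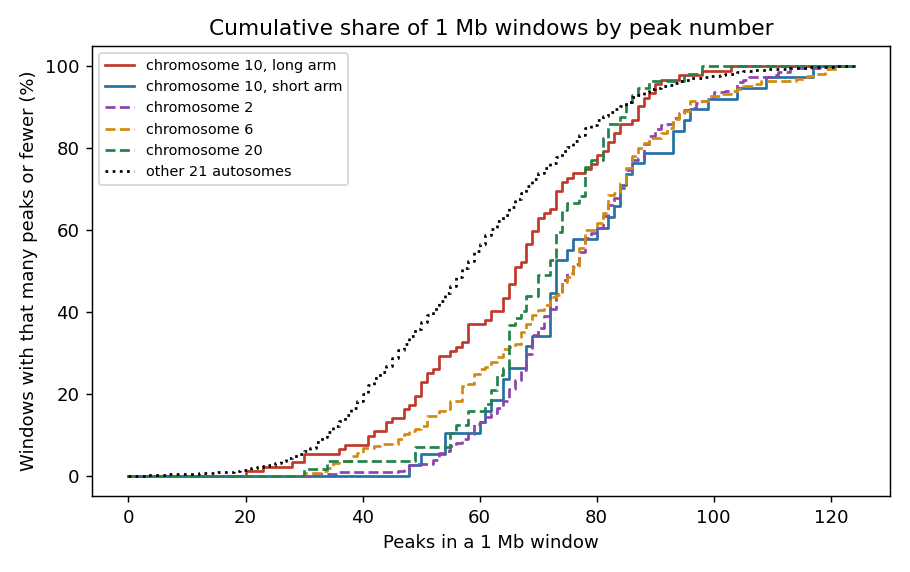
Cumulative share of full 1 Mb windows (y axis, percent) holding a given number of peaks or fewer (x axis), for the long arm (92 windows) and short arm (38 windows) of chromosome 10, chromosomes 2, 6 and 20, and the other 21 autosomes together. The short arm follows chromosome 2 closely, with medians of 73 and 76 peaks; the median of the long arm, 66, lies between these and that of the other autosomes, 57.

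The clearest departure from high density was a sparse stretch on the long arm near the gap. The best division of the windows into 3 stretches of at least 10 windows gave 35 windows from 1000001 to 36000000 with 78.7 ± 15.3 peaks (SD over windows), 12 windows from 36000001 to 52000000 with 44.0 ± 18.9, and 83 windows from 52000001 to 135000000 with 67.5 ± 15.3. The densest stretch had 1.79 times the mean of the sparsest (exact 95% interval 1.63 to 1.97, at limits chosen for the difference). Allowing stretches of 5 windows narrowed the middle one to 8 windows from 44000001 to 52000000, with 34.8 ± 12.2 peaks and a ratio of 2.22. A single window of those 8 was above the autosome median. In the same search, 2 of the other 21 autosomes gave a larger ratio than 2.22, and their median was 1.53.

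From 44000001 to 52000000 there were 278 peaks at 34.8 per Mb (95% Poisson interval 30.8 to 39.1), against 70.5 per Mb (69.0 to 71.98) on the rest of chromosome 10. Long gaps took up much of this stretch. Of the 43 peak-free gaps from 100 kb to 1 Mb on chromosome 10, 14 lay inside it, and together they spanned 3.30 of its 8 Mb. On what remained there were 59.1 peaks per Mb, against 72.7 on the rest of the chromosome treated in the same way. The 4 longest gaps under 1 Mb on the chromosome all lay there: 670 kb from 47660125 to 48330201, 557 kb from 46352920 to 46909952, 350 kb from 51127463 to 51477408 and 308 kb from 48643435 to 48951314. The next longest, 287 kb from 17776302 to 18063161, was on the short arm. Empty bins of 100 kb were concentrated in the same way, since 20 of the 27 on the chromosome were among the 80 bins of this stretch. A gap shows no more than that no peak was called there. Whether hg19 has sequence in these gaps, or whether reads could be placed there, was not analysed. Such gaps stay in the length behind the 34.8 peaks per Mb.

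Most widths inside the sparse stretch were close to those elsewhere, and its peaks of 1 kb or wider were too few to compare. The median width was 325.5 bp against 322 bp on the rest of the chromosome, and 21.2% (95% Wilson interval 16.8 to 26.4%) against 20.8% (19.9 to 21.6%) were 420 bp or wider. Of the 278 peaks in the stretch, 1 was 1 kb or wider (0.360%), against 115 of 8746 on the rest of the chromosome (1.31%). A count of 1 is too small to show a difference. Of the peaks in the stretch, 45.7% had a neighbour within 5 kb, against 58.7% elsewhere, and 16.9% were listed in more than 1 row, against 8.32% elsewhere. Without this stretch the long arm held 67.5 peaks per Mb (65.7 to 69.2) and was still exceeded by the same number of autosomes, 3, while its ratio to the short arm came to 0.875.

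The far end of the long arm was sparse as well. From 132000001 to the last peak, which ended at 135520927, there were 125 peaks at 35.5 per Mb (29.6 to 42.3), with a median width of 322 bp and none of 1 kb or wider. The last 3 full windows held 36, 42 and 30 peaks. Their mean of 36 was at rank 8 from the lowest among the final 3 windows of the 22 autosomes, whose median on the others was 41.7, and on 18 of the other 21 the final 3 windows were also below the chromosome's own mean. By contrast, the first 3 full windows of chromosome 10, at the tip of the short arm, averaged 76 peaks, against a median of 49.3 on the other autosomes. With the 6 windows from 46000001 to 52000000 and the single window from 44000001 to 45000000, this end accounts for all 10 windows below the lower quartile.

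High windows formed long runs on both arms. The longest runs of consecutive windows above the autosome median were 19 windows each: on the short arm from 17000001 to 36000000, with 60 to 117 peaks and a mean of 82.1, and on the long arm from 88000001 to 107000000, with 58 to 91 peaks and a mean of 75.9. Runs of 8 windows followed, from 1000001 to 9000000 on the short arm, with a mean of 80.0, and from 59000001 to 67000000 on the long arm, with a mean of 74.9. The longest run below the median was 6 windows from 46000001 to 52000000, with 20 to 41 peaks. Other runs below the median were at most 3 windows long, as from 83000001 to 86000000 with 45 to 53 peaks. Of 14 pieces of 10 Mb, 12 exceeded the autosome median density, from 59.7 to 83.8 peaks per Mb; those below were 40 to 50 Mb, with 43.3, and the partial piece from 130 Mb on, with 44.6.

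Of the 5 densest windows, 4 lay on the short arm, while the 32 densest comprised 18 on the long arm and 14 on the short arm. The window from 20000001 to 21000000 held 117 peaks, the one after it 109 and the one from 24000001 to 25000000 held 104. The window from 75000001 to 76000000, on the long arm, held 103, and the one from 5000001 to 6000000 on the short arm held 99. Rich windows differed in the width of their peaks. The median width was 299 bp in the window of 117 peaks, of which 21.4% were 420 bp or wider, and 399 bp in the window of 103 peaks, of which 44.7% were. The sparsest windows all lay on the long arm: from 48000001 to 49000000 with 20 peaks, 46000001 to 47000000 with 23, 47000001 to 48000000 with 28, and 51000001 to 52000000 and 134000001 to 135000000 with 30 each.

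Widths on chromosome 10 had the same shape as on the other autosomes with more weight at the wide end. The median was 322 bp with quartiles of 232 and 406 bp, against 316 bp with quartiles of 229 and 396 bp over the peaks of the other 21 autosomes. Peaks ran from 146 to 2661 bp. In bins of 10 bp the fullest began at 160 bp, with 357 peaks, and counts dropped abruptly at 420 bp: 268 peaks were 410 to 419 bp wide and 131 were 420 to 429 bp. Above that edge lay 20.8% of the peaks of chromosome 10 (95% Wilson interval 19.96 to 21.6%), rank 6 of 22, against a median of 16.8% on the other autosomes. These peaks held 36.6% of the covered bases on chromosome 10 and 31.7% on the other autosomes. The arms were alike in median width, 321 bp on the long arm and 324 bp on the short arm.

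**Figure D4:**
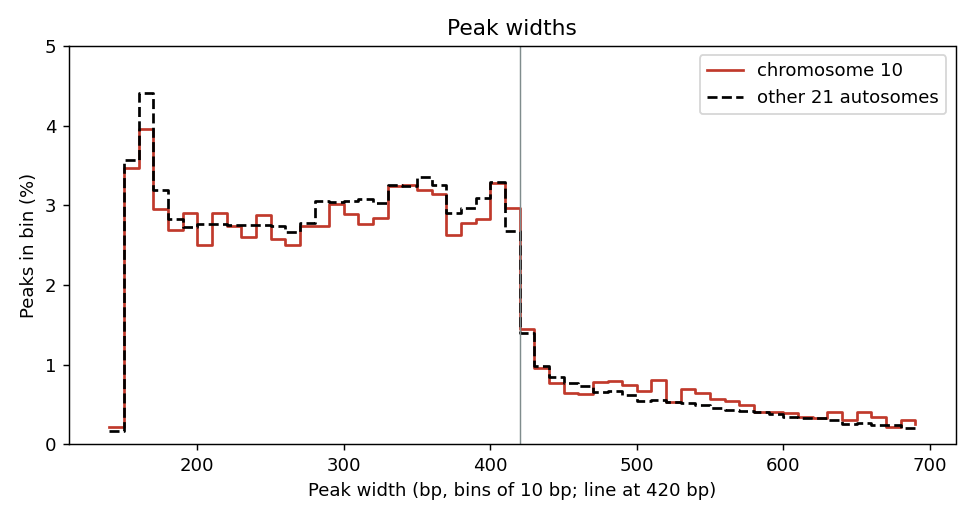
Share of peaks (y axis, percent) by width in bins of 10 bp (x axis, bp) on chromosome 10 (red, 9024 peaks) and on the other 21 autosomes (dashed, 148126 peaks). Both have a narrow mode at 160 to 169 bp and an edge at 420 bp, and chromosome 10 has 79.2% of its peaks under that edge against 82.1%.

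Wide peaks set chromosome 10 with a distinct group of autosomes. Peaks of 1 kb or wider numbered 116, a share of 1.29% (95% Wilson interval 1.07 to 1.54%), which was 2.17 times the median of the other autosomes, 0.591%. The autosomes fell into 2 bands on this share. Chromosome 10 was the lowest of 8 chromosomes in the upper band, below chromosomes 17 (1.95%), 20 (1.93%), 14 (1.77%), 22 (1.61%), 2 (1.52%), 16 (1.50%) and 6 (1.47%). The next was chromosome 11, at 0.663% (0.496 to 0.886%), and the other 13 followed down to chromosome 5 at 0.330%. The interval of chromosome 10 did not overlap that of chromosome 11. The upper band was not the order of density: chromosome 14, at 46.7 peaks per Mb, and chromosome 22, at 56.6, were in it, while chromosome 3, at 58.9 peaks per Mb, had 0.584% wide peaks. The bands were noticed after the values were seen. How many copies of each chromosome these cells carry was not examined, so the part of copy number in peak density and width was not tested.

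**Figure D5:**
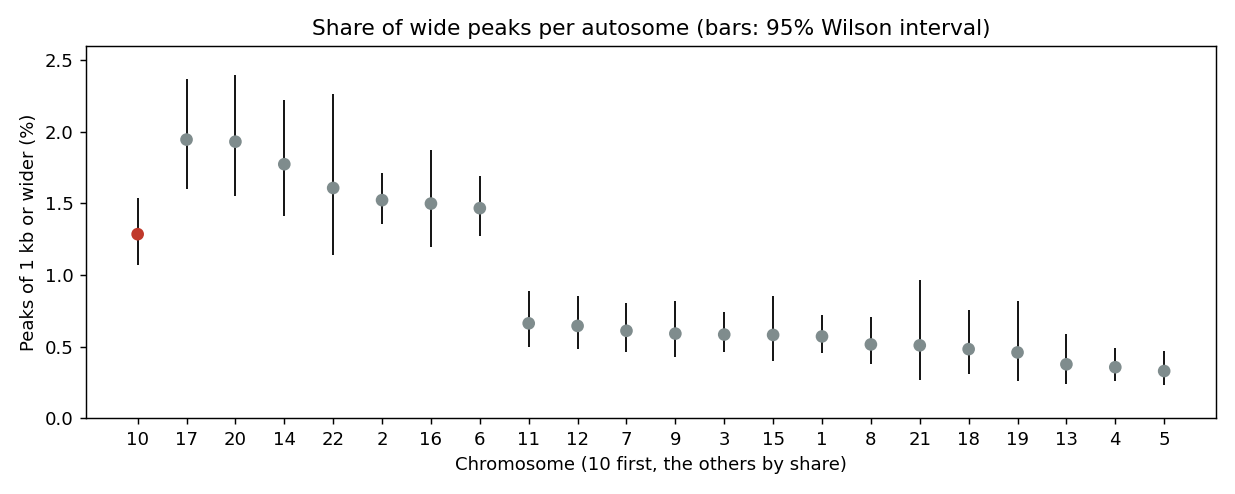
Share of peaks that were 1 kb or wider on chromosome 10 (red) and the other 21 autosomes (grey), with 95% Wilson intervals. Chromosome 10, at 1.29%, stands with 7 chromosomes between 1.47 and 1.95%; the remaining 14 lie between 0.330 and 0.663%.

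Along the chromosome the wide peaks were spread unevenly. The long arm had 86 peaks of 1 kb or wider, 1.43% of its peaks (95% Wilson interval 1.16 to 1.76%), and the short arm 30, which was 0.998% (0.700 to 1.42%). These intervals overlap. Of the 130 full windows, 57 held at least 1 wide peak and 73 held none. Windows with the most were 75000001 to 76000000 with 6, and 35000001 to 36000000 and 104000001 to 105000000 with 5 each. From 99000001 to 105000000, a stretch chosen after its values were seen, 19 of 450 peaks were that wide, 4.22% (2.72 to 6.50%) against 1.13% on the rest of the chromosome; 16.4% of the wide peaks lay in 4.54% of the length.

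Of the 10 widest peaks, 5 lay in that stretch, which held 450 of the 9024 peaks of chromosome 10. These 5 are among the 19 wide peaks already counted there, so they add no separate support. The widest of all, 2661 bp, ran from 90751876 to 90754536, with neighbours 3.85 kb before and 1.67 kb after it. In the stretch lay the peaks from 104069298 to 104071195 (1898 bp), 99038738 to 99040356 (1619 bp), 101845509 to 101847121 (1613 bp), 100067881 to 100069416 (1536 bp) and 102749560 to 102751066 (1507 bp). Elsewhere on the long arm lay those from 79092069 to 79093898 (1830 bp), 113936479 to 113938248 (1770 bp) and 65018665 to 65020210 (1546 bp). The only one on the short arm ran from 7749511 to 7751208 (1698 bp). All 10 lay in windows of 51 to 98 peaks, and none was in the sparse stretch or beside the peak-free gap. The sparse stretch held 278 of the 9024 peaks, so a count of none among 10 is too small to show a difference.

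Wide peaks were more frequent in the densest 25% of windows than in the sparsest 25%, though not in every part of the chromosome. In the sparse stretch from 44000001 to 52000000, 21.2% of the peaks were 420 bp or wider, against 20.8% on the rest of the chromosome. The densest window, of 117 peaks, had a median width of 299 bp. In the 32 densest windows, of 82 to 117 peaks, 25.5% of the peaks (95% Wilson interval 23.9 to 27.1%) were 420 bp or wider and the median width was 333 bp. In the 32 sparsest windows, of 20 to 55 peaks, 13.5% (11.9 to 15.4%) were and the median was 312 bp. Peaks of 1 kb or wider made up 1.82% in the densest windows and 0.140% in the sparsest. Across the 130 windows the peak number and the median width had a Spearman rho of 0.35 and a Pearson r of 0.30. Every other autosome gave a positive rho too, from 0.12 on chromosome 16 to 0.63 on chromosome 14; both measures come from the same reads, and the values are a description.

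Neighbouring peaks on chromosome 10 lay closer together than on most autosomes. Gaps between neighbours had a median of 8.65 kb with quartiles of 3.07 and 18.9 kb, against 10.1 kb with quartiles of 3.55 and 22.3 kb on the other 21 autosomes. The median was 9.06 kb on the long arm and 8.01 kb on the short arm. A neighbour within 5 kb was present for 58.3% of the peaks (95% Wilson interval 57.3 to 59.3%), rank 3 from the highest of the 22 autosomes, against a median of 50.5%. Within 1 kb the share was 20.5%, rank 4, against a median of 17.7%. Density moved with these shares, at 68.3 against 53.7 peaks per Mb, and its part in them was not tested.

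Tight runs were short. Peaks within 1 kb of each other formed 725 pairs, 105 runs of 3, 20 runs of 4 and 1 run of 6, and 7173 peaks had no neighbour that close. Runs of 3 or more held 4.44% of the peaks of chromosome 10 and 3.41% on the other autosomes. The run of 6 lay on the long arm from 65168470 to 65172150, with 2071 of its 3681 bp covered. The tightest runs of 4 ran from 8767135 to 8768726, 20923055 to 20925124, 64977882 to 64980046 and 57204544 to 57206780. At the other end, 27 peaks (0.299%) had no neighbour within 50 kb, against 0.807% on the other autosomes. Isolated peaks were narrow, as on the other autosomes. On chromosome 10 their median was 269 bp and none reached 420 bp. The 1851 peaks with a neighbour within 1 kb had a median of 335 bp and 26.6% reached it. On the other autosomes the isolated peaks had a median of 287 bp and 7.28% reached 420 bp. Those with a neighbour within 1 kb had 328 bp and 22.9%. With 27 isolated peaks on chromosome 10, a count of none is too small to show a difference.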

How the data were processed

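The single deposited file is a list of peaks with 3 columns, the chromosome, start and end, on hg19. Per the file header, the authors trimmed reads, removed duplicates and called peaks with MACS at a p-value cutoff of 1e-05 and an enrichment factor of 32, with the LSD2 siRNA H3K4me1 library as treatment, the GL3 siRNA H3K4me1 library as control, and neither input library named. The submitters' processing notes name BWA, with its version not given in the sources used here. The deposited columns hold no score or p-value for a peak, so all peaks counted alike, and regions lower after knockdown are not in such a call. No peak overlapped another.

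Distinct peaks were counted in Python 3.11.15 (pandas 2.3.3, numpy 2.4.6, scipy 1.17.1). Density left out peak-free gaps over 1 Mb. Peak midpoints filled 1 Mb windows; windows cut by such a gap or by the first or last peak were left out. Stretches minimised the squared deviations of windows from stretch means. This step was tested on simulated windows, drawn independently from Poisson counts with a planted sparse stretch. The test does not cover windows as variable, and as like their neighbours, as those of chromosome 10. Poisson, Wilson and exact binomial intervals (95%) were computed. Regions were named by rule (10 widest peaks, 5 densest and 5 sparsest windows, longest runs and gaps, tightest runs); other regions were chosen after their values were seen. The gene table (GRCh38.p14) gave names and gene numbers; the gene lists prepared for hg19 were not run. Chromosome 10, its measures and these lists were chosen with earlier results of these data known.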

Additional observations from a re-analysis of the deposited data

Results flagged for a closer look

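Repeated rows in the deposited list are a signal outside the peak positions themselves. On chromosome 10, 775 peaks were written in more than 1 row, 8.59% (95% Wilson interval 8.03 to 9.18%), against 10.95% of the peaks on the other 21 autosomes. The share was 9.39% on the long arm and 6.99% on the short arm. The most repeated peaks were neighbours, from 75007939 to 75008220 with 6 rows and from 75010194 to 75010646 with 5 rows. Repeated peaks had a median width of 337 bp and the others 321 bp. What a repeated row stands for was not tested.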

How the results depend on the processing

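Of 27 alternatives, 15 stayed within the 95% counting interval of the value reported and 12 moved outside it. None turned round the direction of the density ratio or the ratio of the arms. The ratio of stretches sets the highest mean over the lowest, so its direction could not turn round. The alternatives for width, gap and neighbour share were computed on chromosome 10 alone and carry no comparison. The density of chromosome 10 relative to the autosome median, 1.27, was 1.35 when only peaks of 316 bp (the median) or more were kept, 1.24 with peaks within 1 kb merged, 1.37 by covered bases and 1.31 without the densest 25% of windows, the last added after seeing the data. The ratio of the densest to the sparsest stretch, 1.79, was 2.10 with 2 Mb windows and 2.22 with stretches of at least 5 windows. Median width was 338 bp after merging. The median gap was 10.3 kb after merging and 15.6 kb for the wider peaks. The share with a neighbour was 20.5% at 1 kb, 93.7% at 20 kb and 40.3% at 5 kb for the wider peaks. The ratio of the arms, 0.839, ranged from 0.821 to 0.875, and the share of windows above the autosome median from 67.7 to 76.2%. No paired analysis was possible because there is 1 library per group, and no replicate could be left out for the same reason. The depth is unknown, so the lack of a peak does not show that H3K4me1 was the same there.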
